A study of Mus musculus with 11 samples.

Results

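Wild-type MYC-driven thymic lymphomas (3 samples) were compared with Dnmt3b-deficient thymocytes taken before tumors appeared (2 samples). The members were assigned to the groups by the sample titles and make up 5 of the 11 arrays of a mouse thymus series. The comparison itself was chosen with earlier results of these data known. The series asks how loss of Dnmt3b, a de novo DNA methyltransferase, bears on MYC-induced lymphoma. RNA (300 ng per sample) was hybridised to Affymetrix whole-transcript arrays, 1 array per sample, and the labels call the samples of a group biological replicates.

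All mice were of the FVB strain. The wild-type lymphomas carried the transgenes EμSR-tTA and Teto-MYC, the reporter Rosa26LOXPEGFP and floxed Dnmt3bF/F alleles, which stay intact because no Cre transgene is present. The pre-tumor thymocytes carried EμSR-tTA, Teto-MYC and in addition Teto-Cre, with the reporter Rosa26LOXPEGFP, are labelled Dnmt3b-/- and were harvested at 24 days of age. Both groups therefore carried the tTA activator, the tetracycline-controlled MYC oncogene and the EGFP reporter. From the pre-tumor thymi only EGFP-positive sorted cells were used, whereas the lymphomas were collected once tumor burden had become apparent and went unsorted into TRIzol; their ages are not given in the labels. Stage, sorting, Cre and Dnmt3b genotype all differ between the groups, and their parts in any difference cannot be told apart. The other 6 arrays, 3 of Dnmt3b-deficient lymphomas with the genotype of the pre-tumor mice and 3 of normal thymocytes at 24 days (EμSR-tTA, Teto-Cre and Rosa26LOXPEGFP with Dnmt3b+/+ alleles, without the MYC transgene), entered the fit for the estimate of spread and are given here only for reference.

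Thymocytes mature from double-negative progenitors through a double-positive stage, at which both coreceptors CD4 and CD8 are on the surface and the RAG recombinase and terminal transferase assemble antigen receptor genes, to single-positive T cells. MYC drives ribosome production, metabolism and cell division, and in the thymus its continued activity leads to T cell lymphoma after a delay. Dnmt3b adds methyl groups to cytosines that stand before guanines (CG pairs), and methylation at promoters generally goes with silencing.

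Values are log2 levels on which no entry lies below 3.32, the log2 of 10. On each array 21.8% to 25.8% of the entries sat at this floor, so a fold against a group wholly at the floor is given as a lower limit. Array medians ranged from 4.53 to 4.66. Over all fitted probe sets, the mean Pearson correlation was 0.984 among the wild-type lymphoma arrays, 0.988 between the pre-tumor arrays and 0.978 between the groups, while it was 0.941 and 0.943 between normal thymocytes and these 2 groups. Wild-type lymphoma replicate 3 stood apart from the others of its group. Its mean correlation with them was 0.981, against 0.985 for each of the other lymphomas, and on the second principal component, which held 10.5% of the variance, it lay at -0.7 between lymphomas 1 and 2 (-23 and -31.8) and the pre-tumor samples (27.1 and 32.5). On the first component, which held 56.6% of the variance, it lay at 19.3, near lymphoma 2 (22.9), with lymphoma 1 at 36.8. There the 2 pre-tumor samples were far apart, at 10.2 and 40.5, on either side of all 3 lymphomas. Where leaving out wild-type lymphoma replicate 3 changed a call or moved a difference named here by over 1.5-fold, both values are given.

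Dnmt3b, the gene deleted in the pre-tumor mice, had log2 levels of 5.36, 5.59 and 5.70 in the lymphomas and 5.07 and 5.24 in the pre-tumor thymocytes. The lymphomas lay above the pre-tumor samples without overlap, but the difference of 0.39 (SE 0.11) did not pass the threshold in limma (adjusted p = 0.369). A two-sided exact permutation test of the 5 values gave p = 0.2, where 10 arrangements allow no p below 0.1. Where the probes of this gene lie relative to the deleted exons was not analysed here, so this signal is no test of the labelled genotype. Dnmt1, the maintenance methyltransferase, differed by -0.10 (SE 0.06, adjusted p = 0.829 in limma). Dnmt3a, the other de novo enzyme, differed by -0.36 (SE 0.40, adjusted p = 1.0 in limma). It read 6.83, 6.69 and 8.07 in the lymphomas and 7.65 and 7.47 in the pre-tumor thymocytes. Without wild-type lymphoma replicate 3 its difference was -0.80 (adjusted p = 0.22 in limma). The Myc probe set differed by -0.63 (SE 0.26, adjusted p = 0.613 in limma). It read 5.27, 5.62 and 4.83 in the lymphomas and 5.87 in both pre-tumor samples. Normal thymocytes, which lack the MYC transgene, were higher, at 7.79, 8.13 and 7.77. Whether the probe set reads the transgene's transcript is not stated in the labels, so its level is not taken here as a measure of the MYC oncogene.

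Few genes separated the groups beyond the spread between samples. Of 28939 probe sets tested, 31 passed an adjusted p under 0.05 in limma (0.107%). Among the 21789 with a single gene symbol, 23 passed (0.106%): 8 were higher in the lymphomas (0.0367%) and 15 lower (0.0688%). These represent 22 of 19938 genes when each gene is read from its brightest probe set (0.11%), with 7 that rose (0.0351%) and 15 that fell (0.0752%). At an unadjusted p under 0.05 there were 1628 genes (8.17%), of which 942 were higher (4.72%) and 686 lower (3.44%). The 3 and 2 samples did not overlap for 4159 genes (20.9%), of which 2422 were higher (12.1%) and 1737 lower (8.71%). The median difference over all genes was 0.00, and 386 genes differed at least 2-fold between the group means, 220 upward and 166 downward. In the same fit, 5755 probe sets passed between wild-type lymphoma and normal thymocytes (19.9%) and 5662 between pre-tumor and normal thymocytes (19.6%). The number of calls depended on single samples. It was 122 (93 higher, 29 lower) without wild-type lymphoma replicate 3, 56 and 39 without pre-tumor replicates 1 and 2, 37 without Dnmt3b-deficient lymphoma replicate 1, and 12 and 13 without normal replicates 1 and 3. Leaving out 1 pre-tumor sample assumes that the lone remaining one varies like the other groups.

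**Figure D1:**
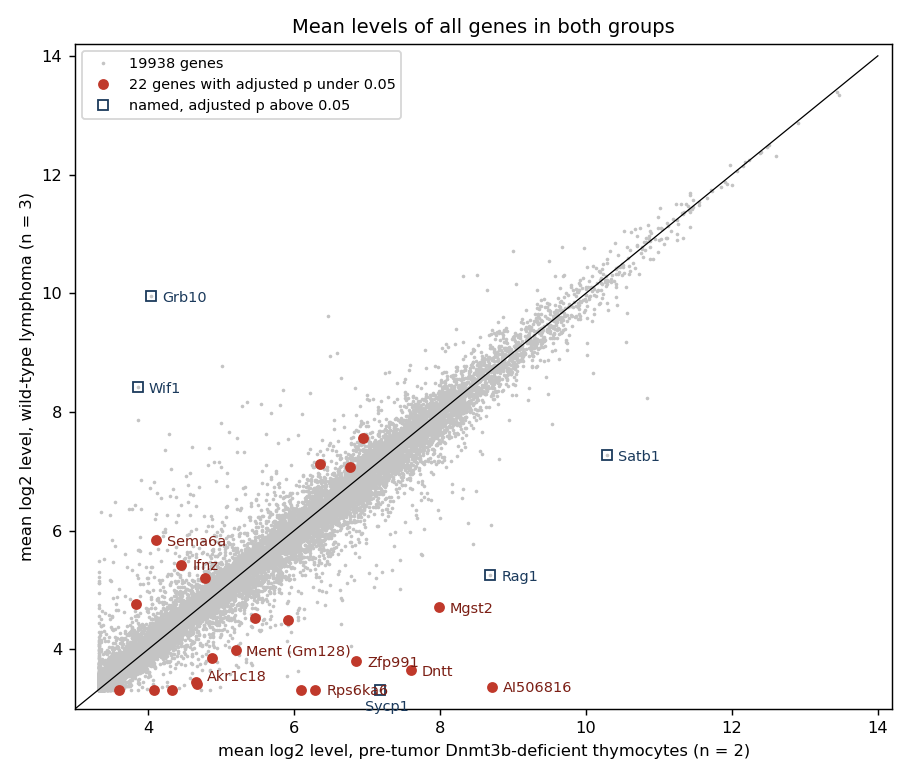
Mean log2 level of 19938 genes in the 2 pre-tumor Dnmt3b-deficient samples (x axis) and the 3 wild-type lymphomas (y axis); the diagonal marks equal levels. Red points are the 22 genes with adjusted p under 0.05, of which 15 lie below the diagonal and 7 above it; open squares name 5 genes with large differences that did not pass.

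Among the 15 genes that fell were Dntt, Mgst2, Akr1c18 and Ment. Their promoters are shown because DNA methylation acts on CG pairs and because each gene is described next. They run from 250 bases before to 50 bases after the transcription start in RefSeq (GRCm38.p6), 5′ to 3′ on the gene's strand, with CG pairs in capitals. They lie at chr19:41029025-41029324 (Dntt, plus strand), chr3:51660929-51661228 (Mgst2, plus strand), chr13:4150597-4150896 (Akr1c18, minus strand) and chr3:95241060-95241359 (Ment, older symbol Gm128, minus strand).
Dntt promoter: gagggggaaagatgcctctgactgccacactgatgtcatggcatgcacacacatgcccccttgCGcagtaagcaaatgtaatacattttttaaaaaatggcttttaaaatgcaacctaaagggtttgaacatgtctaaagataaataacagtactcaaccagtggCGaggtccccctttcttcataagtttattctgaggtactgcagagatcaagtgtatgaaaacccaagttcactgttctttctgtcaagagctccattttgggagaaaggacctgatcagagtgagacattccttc
Mgst2 promoter: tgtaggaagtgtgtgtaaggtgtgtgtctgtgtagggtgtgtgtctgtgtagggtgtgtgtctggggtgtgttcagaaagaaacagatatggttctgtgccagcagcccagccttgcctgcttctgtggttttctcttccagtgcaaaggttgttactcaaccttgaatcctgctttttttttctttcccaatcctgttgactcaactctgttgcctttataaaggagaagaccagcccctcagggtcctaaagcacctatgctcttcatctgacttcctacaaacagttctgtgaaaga
Akr1c18 promoter: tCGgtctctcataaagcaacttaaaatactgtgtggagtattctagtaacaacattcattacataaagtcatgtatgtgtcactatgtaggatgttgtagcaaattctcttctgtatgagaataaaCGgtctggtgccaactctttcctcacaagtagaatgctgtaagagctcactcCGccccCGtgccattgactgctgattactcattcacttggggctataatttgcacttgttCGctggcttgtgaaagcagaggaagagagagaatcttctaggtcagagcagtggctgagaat
Ment promoter: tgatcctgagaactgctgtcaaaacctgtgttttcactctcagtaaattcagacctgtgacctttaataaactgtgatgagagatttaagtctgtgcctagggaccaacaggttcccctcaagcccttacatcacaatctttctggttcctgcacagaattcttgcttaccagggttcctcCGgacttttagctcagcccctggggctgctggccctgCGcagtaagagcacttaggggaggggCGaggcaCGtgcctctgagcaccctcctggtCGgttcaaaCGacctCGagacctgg
The Mgst2 window holds no CG pair (a count of 0, shared by 5.43% of all 32851 promoters), Dntt holds 2, Akr1c18 holds 5 and Ment holds 7, the median over all promoters. The E-box CACGTG, the preferred MYC and MAX motif, which reads the same on both strands and contains 1 CG pair, was found in the Ment window and not in the other 3; it is present in 7.15% of all promoters. For the genes of all called single-symbol probe sets, 21 promoters of 17 genes matched by symbol, with a median of 7 CG pairs and CACGTG in 4.76%. Methylation was not analysed here.

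Dntt, the terminal transferase that adds untemplated bases at V(D)J junctions, had log2 levels of 8.11 and 7.09 in the pre-tumor thymocytes and 3.98, 3.40 and 3.57 in the lymphomas. Every lymphoma lay more than 3 log2 units below the lower pre-tumor sample. The difference was -3.95 (SE 0.39, adjusted p = 0.0251 in limma), a 15.5-fold lower level. Normal thymocytes were higher than both groups, at 9.62 to 9.82. The call was lost when any of normal replicates 1, 2 and 3 or wild-type lymphoma replicates 1 and 2 was left out, and the adjusted p over all alternatives ranged from 0.00073 to 0.22.

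Mgst2, a microsomal glutathione transferase, read 7.82 and 8.14 in the pre-tumor samples against 4.68, 4.47 and 4.97 in the lymphomas. The groups were far apart, and the difference of -3.27 (SE 0.25) passed in limma (adjusted p = 0.00688). Normal thymocytes lay between them at 6.81 to 7.34. Gstk1, the kappa-class glutathione transferase of mitochondria and peroxisomes, was at 4.57 and 4.76 in the pre-tumor samples and at 3.47, 3.32 and 3.45 in the lymphomas, 1 of them at the floor. Its difference of -1.25 (SE 0.10, adjusted p = 0.00801 in limma) is thus a lower limit on the change, and normal thymocytes were higher still at 5.52 to 5.82. Akr1c18, in the mouse a hydroxysteroid dehydrogenase that inactivates progesterone, had levels of 5.72 and 6.47 in the pre-tumor thymocytes and lay at the floor in all 3 lymphomas, at least 6.85-fold lower (adjusted p = 0.00272 in limma). Normal thymocytes again lay between, at 4.56 to 4.71. These 3 calls held with any 1 sample left out. For Akr1c18, all lymphomas of both genotypes lay at the floor without spread, which lowers its p-value.

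Ment, named for its methylation in normal thymocytes, had levels of 5.19 and 5.20 in the pre-tumor samples and 3.86, 4.04 and 4.07 in the lymphomas. The lymphomas were lower without overlap, by -1.21 (SE 0.14, adjusted p = 0.0446 in limma), or 2.31-fold. The normal samples, at 4.47, 4.80 and 4.44, fell between the groups, and the Dnmt3b-deficient lymphomas, at 4.91, 5.28 and 5.20, lay close to the pre-tumor values. The call was near the threshold: it was lost without 8 of the 11 samples in turn (normal replicates 1 and 3, wild-type lymphomas 1 and 2, Dnmt3b-deficient lymphomas 2 and 3, and either pre-tumor sample) and passed in 9 of 21 alternatives, with adjusted p from 0.00952 to 0.147. It held without wild-type lymphoma replicate 3 (-1.25, adjusted p = 0.0391 in limma).

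Rps6ka6, Tiam1, Emp1 and Parp14 also fell. Rps6ka6, a member of the p90 ribosomal S6 kinase family, was above the floor in the pre-tumor thymocytes alone of the 4 groups: its levels were 5.97 and 6.62 there and at the floor in all 9 other arrays. It was at least 7.85-fold lower in the lymphomas (adjusted p = 0.000867 in limma). The 9 readings at the floor show no spread, which makes this p-value small. The only spread is that of the 2 pre-tumor values (standard deviation 0.46). Tiam1, an exchange factor that activates Rac, fell from 5.48 and 5.46 to 4.55, 4.64 and 4.40, by -0.94 (SE 0.09, adjusted p = 0.0251 in limma). Emp1, a small membrane protein of the PMP22 family, fell from 4.97 and 4.78 to 3.94, 3.81 and 3.83, by -1.01 (SE 0.10, adjusted p = 0.0261 in limma). For both genes normal thymocytes were higher than either group. Parp14, an ADP-ribosyltransferase induced by interferon, fell from 5.73 and 6.12 to 4.51, 4.51 and 4.46, by -1.43 (SE 0.17, adjusted p = 0.0456 in limma). Without wild-type lymphoma replicate 3 it no longer passed (-1.42, adjusted p = 0.0552 in limma, in a range of 0.00791 to 0.234 over all alternatives). Among these 4 genes only Rps6ka6 passed with each sample left out in turn. Tiam1 lost its call without 5 samples (normal 1 and 3, wild-type lymphoma 1 and either pre-tumor sample), Emp1 without 6 (any normal sample, wild-type lymphomas 1 and 2, and pre-tumor 1) and Parp14 without 8 (all but normal 2 and 3 and pre-tumor 1).

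Zinc finger genes of chromosome 4 were also higher in the pre-tumor thymocytes. Zfp991 read 6.74 and 6.97 there and 4.34, 3.74 and 3.32 in the lymphomas, a difference of -3.05 (SE 0.35, adjusted p = 0.0446 in limma), with lymphoma 3 at the floor. Its call was lost without 9 of the 11 samples, and held without wild-type lymphomas 1 or 3. Zfp985 read 4.09 and 4.07 against the floor in all 3 lymphomas, at least 1.69-fold (adjusted p = 5.519e-06 in limma), and its call held in all 20 alternatives in which it was tested, other than the 2-fold minimum. The other 2 probe sets of Zfp985 lay at the floor on all 11 arrays. The called one was at the floor in all normal samples too, and readings without spread lower its p-value. The 8 called probe sets without a single symbol were all lower in the lymphomas, by -2.94 to -0.83. Of these, 5 carry between 5 and 13 symbols, each including Zfp991, and differed by -2.71 to -2.33. Since their symbols overlap, they are not counted as separate genes, and which gene gave the signal cannot be read from them. The remaining 3 have no symbol, and 2 of those hold identical values. Mterf2, of the mitochondrial transcription termination factor family, read 3.59 and 3.62 against the floor in all lymphomas, at least 1.22-fold (adjusted p = 5.519e-06 in limma), a difference that is small and rests on 2 readings just above the floor. Without the probe sets at the floor on all arrays its call was lost (adjusted p = 0.132 in limma).

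Among predicted genes, which were named after their values were seen, the transcript AI506816 had the largest difference of any call. Its levels were 8.91 and 8.52 in the pre-tumor thymocytes and 3.32, 3.45 and 3.32 in the lymphomas. The difference was -5.35 (SE 0.27, adjusted p = 0.000867 in limma), 40.9-fold as a lower limit because 2 lymphomas sat at the floor. It was at the floor in every normal sample and at 8.93, 7.97 and 8.87 in the Dnmt3b-deficient lymphomas, so all 5 samples labelled Dnmt3b-deficient were high and all 6 others low. The call held in all 21 alternatives. The identity of this probe set is uncertain: RefSeq places AI506816 on chromosome 5, while 9 of the 10 neighbouring probe sets by number belong to chromosome 1. Gm4759 (-1.20, SE 0.10, adjusted p = 0.00866 in limma) and 1700109H08Rik (at least 2.01-fold lower, adjusted p = 0.0375 in limma) complete the 15 genes that fell. Gm4759 held with each sample left out, and 1700109H08Rik lost its call without 8 of them, the exceptions being wild-type lymphoma 3 and Dnmt3b-deficient lymphomas 1 and 2.

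The genes that rose were fewer and their differences smaller. Sema6a, a membrane-bound semaphorin that acts as a guidance cue, had levels of 5.83, 5.91 and 5.79 in the lymphomas and 4.34 and 3.89 in the pre-tumor thymocytes. All lymphomas lay above both pre-tumor samples, by 1.73 on average (SE 0.12, 3.31-fold, adjusted p = 0.00303 in limma). Normal thymocytes, at 4.47 to 4.54, lay between. Ifnz, a type I interferon of the mouse, read 5.33, 5.41 and 5.54 in the lymphomas and 4.46 and 4.45 in the pre-tumor samples, a difference of 0.97 (SE 0.06, adjusted p = 0.00152 in limma). It was highest in normal thymocytes, at 5.93 to 5.96. Both calls held with each sample left out in turn.

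The other 5 rises were Rab11fip5, a Rab11 effector of recycling endosomes (0.93, SE 0.11, adjusted p = 0.0446), Slc25a20, the mitochondrial carnitine-acylcarnitine carrier (0.76, SE 0.08, adjusted p = 0.0273), Rad54l2, an ATPase of the SNF2 family (0.61, SE 0.07, adjusted p = 0.0446), Hand1, a helix-loop-helix factor best known from heart and placenta (0.42, SE 0.05, adjusted p = 0.0368), and Fanca, of the Fanconi anemia core complex (0.30, SE 0.04, adjusted p = 0.0456), all in limma. The other probe set of Rad54l2 differed by 0.67 and did not pass (adjusted p = 0.381 in limma). All 5 genes were free of overlap between the groups, which the rule that named them required. Their calls depended on single samples, counted over the 11 samples left out in turn. Slc25a20 lost its call without 6 samples (any normal, wild-type lymphoma 1 or either pre-tumor sample) and Hand1 without 7 (any normal, wild-type lymphomas 1 and 2, Dnmt3b-deficient lymphomas 2 and 3). Rad54l2 kept its call only without wild-type lymphoma 3 or Dnmt3b-deficient lymphomas 1 or 2, Rab11fip5 only without wild-type lymphoma 3 or pre-tumor 1, and Fanca only without wild-type lymphoma 3 or Dnmt3b-deficient lymphoma 3. In all, 10 of the 22 genes kept their call with any sample left out: the falls of AI506816, Akr1c18, Gm4759, Gstk1, Mgst2, Mterf2, Rps6ka6 and Zfp985, and the rises of Sema6a and Ifnz. For Akr1c18, Mterf2, Rps6ka6 and Zfp985 all wild-type lymphomas lay at the floor without spread. This lowers their p-values in these fits too, so keeping the call says less for them. With only the 2 groups compared in the fit, Mgst2, Gstk1, Akr1c18, Gm4759, Rps6ka6, Sema6a and Ifnz no longer passed, and over all alternatives their highest adjusted p was 0.119, 0.13, 0.208, 0.208, 0.155, 0.208 and 0.155 in limma. The remaining called probe set, for the tyrosine phosphatase Ptpn3, named after its values were seen, read 5.43, 5.35 and 5.51 in the lymphomas against 4.56 and 4.43 (0.94, adjusted p = 0.0331 in limma). It is 1 of 12 probe sets of this gene and not the brightest one, which differed by 0.18 (adjusted p = 0.971 in limma). The other 10 had differences of 0.79 to 1.31, and none of them passed.

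**Figure D2:**
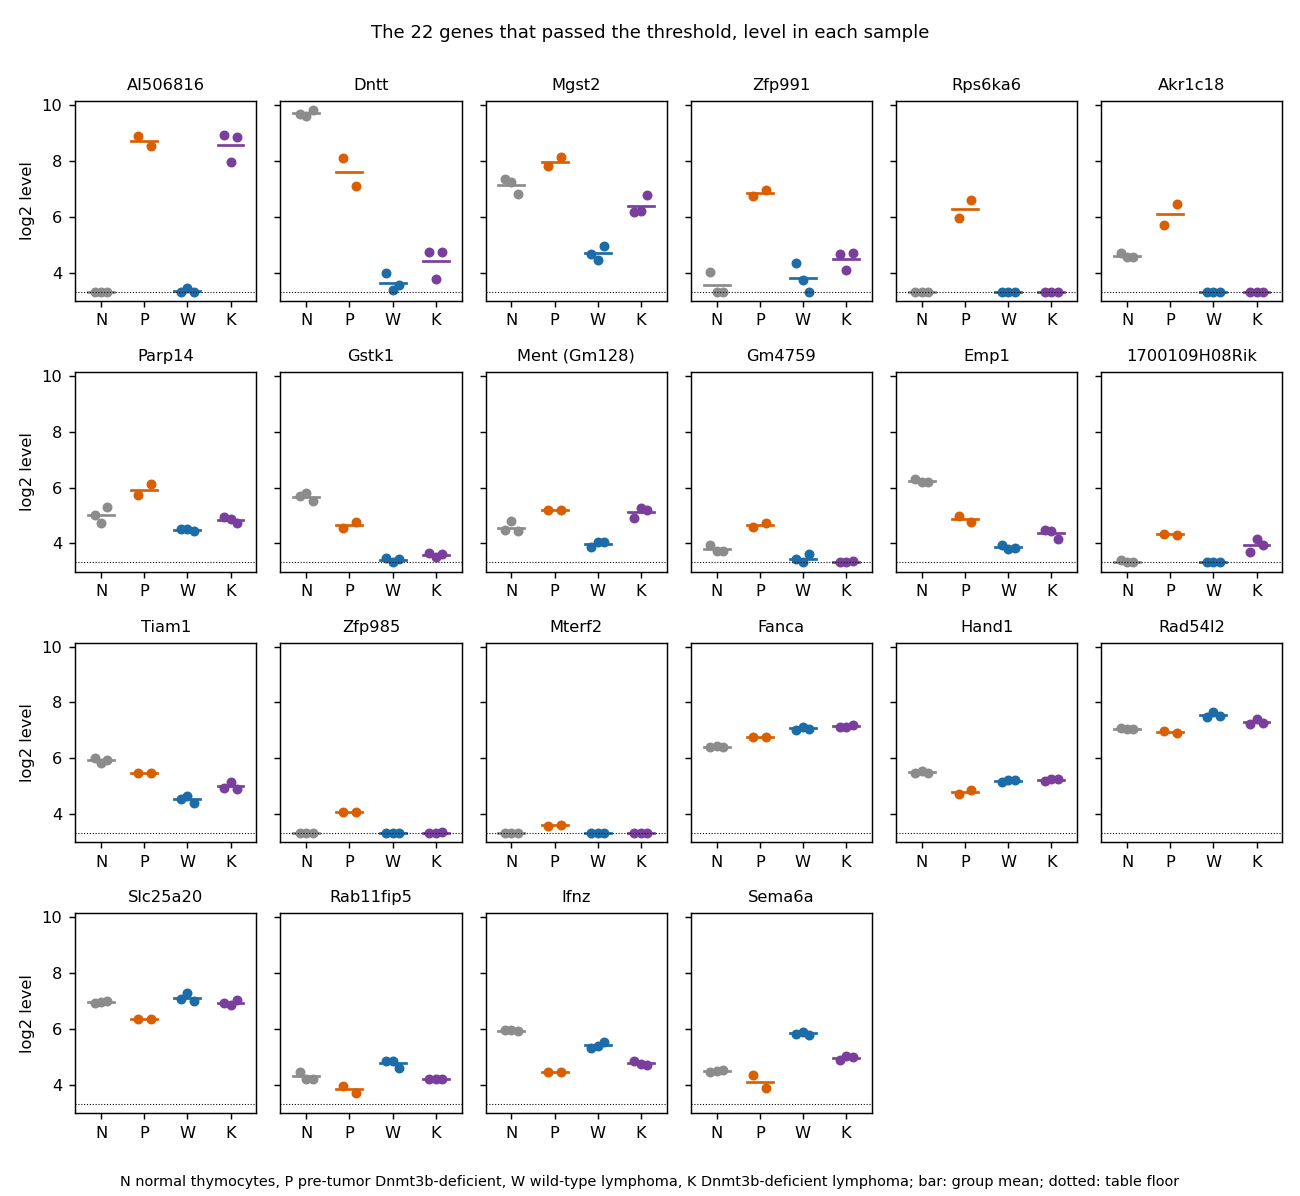
Log2 level in each sample of the 22 genes that passed, ordered by difference, in normal thymocytes (N), pre-tumor Dnmt3b-deficient thymocytes (P), wild-type lymphomas (W) and Dnmt3b-deficient lymphomas (K); bars are group means and the dotted line is the floor of 3.32. AI506816 is high in P and K alone, Rps6ka6 in P alone, and Sema6a is highest in W.

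Comparisons with normal thymocytes and with Dnmt3b-deficient lymphomas share samples with the one described here, so the values are given side by side without a test across them. Mgst2 differed by 0.85 between pre-tumor and normal thymocytes (adjusted p = 0.0538) and by -2.42 between wild-type lymphoma and normal thymocytes (adjusted p = 0.00085). Akr1c18 differed by 1.48 (adjusted p = 0.00285) and -1.30 (adjusted p = 0.00204), Ment by 0.63 (adjusted p = 0.0205) and -0.58 (adjusted p = 0.0167) and Sema6a by -0.39 (adjusted p = 0.0574) and 1.34 (adjusted p = 0.000492) in the same 2 comparisons, all in limma. Dntt moved one way in both, by -2.11 (adjusted p = 0.0107) and -6.06 (adjusted p = 0.000252) in limma. Between the Dnmt3b-deficient lymphomas and the pre-tumor samples, which share the labelled genotype and gave 20 calls (0.0691% of probe sets), Rps6ka6 (-2.97, adjusted p = 0.00116), Akr1c18 (-2.78, adjusted p = 0.00476) and Gstk1 (-1.06, adjusted p = 0.0294) passed in limma. In that comparison Dntt (-3.18, adjusted p = 0.063), Mgst2 (-1.59, adjusted p = 0.101), Ment (-0.07, adjusted p = 1.0) and AI506816 (-0.13, adjusted p = 1.0) did not pass. Between wild-type and Dnmt3b-deficient lymphomas, AI506816 (-5.22, adjusted p = 0.00171) and Ifnz (0.65, adjusted p = 0.0359) passed in limma, the 2 calls of that comparison (0.00691% of probe sets).

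Lists of genes for 41 pathways gave 3 calls among 843 measured genes, and 11 lists of cell type markers gave none among 137. Over all genes there were 22 calls among 19938 (0.11%), and differences were positive for 9227, negative for 7405 and 0 for 3306. The double-positive thymocyte list held the most negative member of any list: of 18 measured, 1 fell (Dntt), none rose, and 15 had negative differences, with a median of -0.62 against 0.00 over all genes. At an unadjusted p under 0.05, 7 of the 18 were lower and 1 was higher, beside 3.44% lower and 4.72% higher over all genes. Below Dntt came members that did not pass and that are named here after their values were seen. Rag1, the recombinase subunit that cuts DNA at receptor genes, read 9.61 and 7.77 in the pre-tumor samples and 6.18, 5.99 and 3.58 in the lymphomas (-3.44, SE 0.99, adjusted p = 0.382 in limma), and the difference was -2.60 without wild-type lymphoma replicate 3 (adjusted p = 0.382). Satb1, a chromatin organiser of thymocytes, read 10.81 and 9.77 against 7.17, 6.80 and 7.84 (-3.02, SE 0.40, adjusted p = 0.065 in limma), and without wild-type lymphoma replicate 3 it passed (-3.31, adjusted p = 0.028 in limma, in a range of 0.00515 to 0.376 over all alternatives). Cd8a, the CD8 coreceptor chain, read 11.39 and 10.30 against 8.78, 9.46 and 6.48 (-2.60, SE 0.91, adjusted p = 0.502 in limma), or -1.72 without wild-type lymphoma replicate 3 (adjusted p = 0.477), while Cd4 differed by -0.20. Pre-tumor replicate 1 was the higher of the pair for each of Dntt, Rag1, Satb1 and Cd8a. In bulk samples, fewer cells of a type and less RNA per cell cannot be told apart.

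In the list of 22 mature single-positive genes, none passed, 17 were lower in the lymphomas and the median was -0.64 (-0.42 without wild-type lymphoma replicate 3). S1pr1, the receptor for thymic egress, read 8.05 and 7.90 in the pre-tumor thymocytes and 6.98, 6.57 and 5.48 in the lymphomas (-1.63, SE 0.51, adjusted p = 0.43 in limma). Itgb7, an integrin chain of gut homing, read 8.33 and 8.0 against 7.20, 6.71 and 6.04 (-1.52, SE 0.44, adjusted p = 0.386 in limma). The groups did not overlap for either gene (8.71% lower without overlap over all genes). The T cell receptor list of 25 genes had a median of -0.04, with 12 positive and 13 negative differences and none that passed. The Notch pathway list of 21 genes, with a median of -0.25, had none that passed. Its largest differences were those of Lfng, which modifies Notch (-1.37, adjusted p = 0.179 in limma), and Notch1 itself (-1.31, adjusted p = 0.591 in limma), whose levels were 7.97 and 7.70 in the pre-tumor samples and 6.44, 6.54 and 6.60 in the lymphomas.

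The glutathione list held both other calls, the falls of Mgst2 and Gstk1, among 20 measured genes with a median of 0.00, of which 9 had positive differences. Growth and metabolism lists had medians near 0 between these 2 groups of MYC-transgenic cells. Ribosome biogenesis (35 genes) had a median of 0.13 here, beside 1.08 for wild-type lymphoma and 1.11 for pre-tumor thymocytes, each against the same normal samples. DNA replication (33 genes) had a median of -0.07, nucleotide and one-carbon synthesis (22 genes) 0.08, chaperones (26 genes) 0.01 and oxidative phosphorylation (26 genes) -0.06, with no member of these lists passing. Mitosis genes were lower in 22 of 29 cases, with a median of -0.35 and none that passed. The mean level of the list was 7.57 and 8.18 in pre-tumor replicates 1 and 2 and 7.74, 7.47 and 7.39 in the lymphomas. Pre-tumor replicate 1 thus lay within the range of the lymphomas. The groups did not overlap for 7 of the genes, all lower (8.71% lower over all genes). Cenpf, a kinetochore protein, read 6.24 and 6.98 in the pre-tumor thymocytes and 5.71, 5.27 and 4.86 in the lymphomas (-1.33, SE 0.29, adjusted p = 0.251 in limma).

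Amino acid genes leaned the other way without a call. Of 22 genes of the amino acid response, 21 were higher in the lymphomas (median 0.26). Of 17 amino acid transporters, 15 were higher (median 0.36), beside 9227 of 19938 over all genes. Asns, asparagine synthetase, read 9.03, 9.73 and 8.68 in the lymphomas and 7.87 and 8.29 in the pre-tumor thymocytes (1.07, SE 0.35, adjusted p = 0.471 in limma). Interferon-stimulated genes were lower in 20 of 25 cases with a median of -0.19, and 8 of them had an unadjusted p under 0.05, all lower (3.44% lower over all genes). Rtp4, an antiviral chaperone protein, had the largest difference of them (-1.55, SE 0.29, adjusted p = 0.179 in limma), from 5.12 and 5.55 to 3.87, 3.75 and 3.75. Lists of imprinted genes (22), germline genes (30) and polycomb genes (25) had medians of 0.00, 0.00 and -0.06. Of the germline genes, 14 were at the floor in all 5 samples. Over the 41 pathway lists, medians ran from -0.64 to 0.36.

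**Figure D3:**
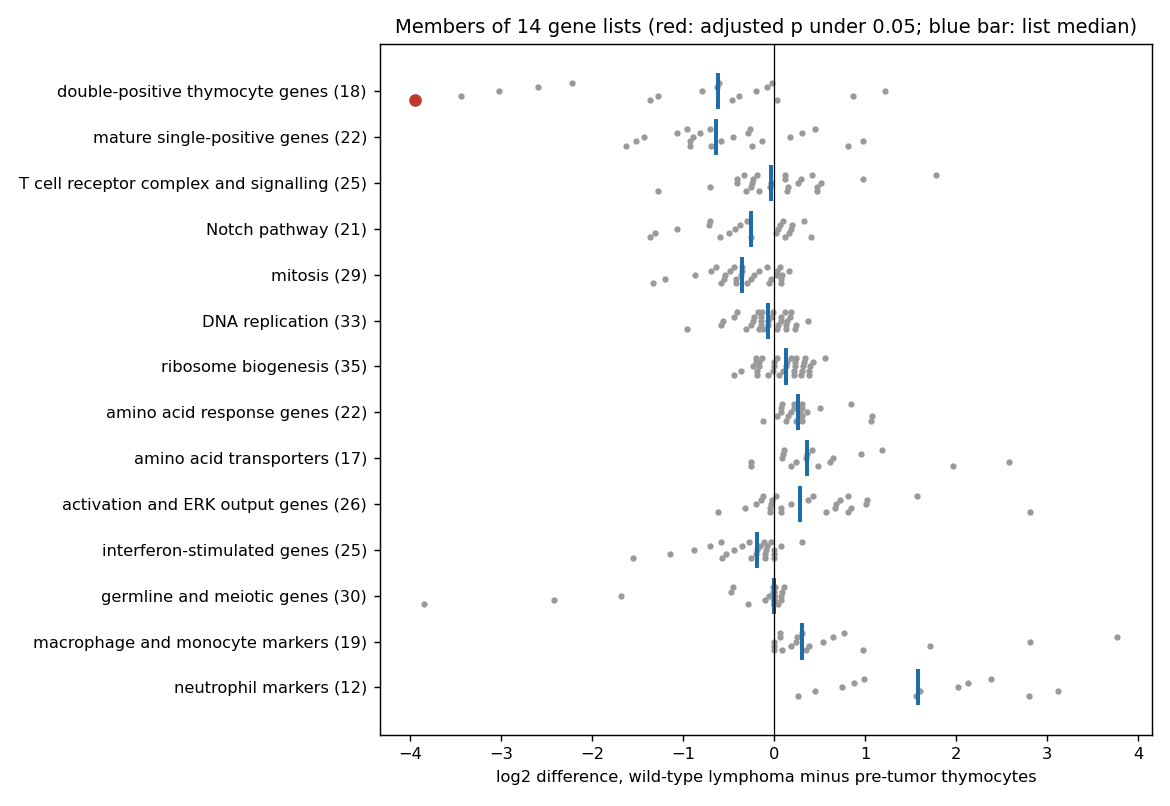
Log2 difference (wild-type lymphoma minus pre-tumor thymocytes) of each measured member of 14 lists, with the number measured in brackets; grey points did not pass, the red point passed (Dntt), and blue bars are list medians. Medians run from -0.64 for mature single-positive genes to 1.58 for neutrophil markers.

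Several of the largest differences in the whole comparison did not pass, with a wide spread within at least 1 group of the fit. Grb10, an imprinted adaptor protein, read 10.57, 11.06 and 8.21 in the lymphomas and 4.17 and 3.92 in the pre-tumor thymocytes (5.91, SE 1.22, adjusted p = 0.22 in limma). Wif1, a secreted inhibitor of Wnt ligands, read 9.16, 9.44 and 6.65 against 3.86 and 3.86 (4.56, SE 0.78, adjusted p = 0.135 in limma). For both genes every lymphoma was far above the pre-tumor samples, with replicate 3 lower than the other two. Etv5, an ETS factor induced by ERK signalling (2.81, adjusted p = 0.357), Lmo2, a LIM protein that acts as a T cell oncogene (2.58, adjusted p = 0.365), and Slc7a8, a transporter of large neutral amino acids (2.58, adjusted p = 0.227), shared this pattern, all in limma. Without wild-type lymphoma replicate 3, Wif1 (5.45, adjusted p = 0.00302) and Slc7a8 (3.19, adjusted p = 0.00675) passed in limma. So did Egln3, an oxygen-sensing prolyl hydroxylase (1.84, adjusted p = 0.00321, against 1.62 and 0.0649 with it), Gadd45g (3.39, adjusted p = 0.0384, against 2.28 and 0.645), Dusp6, a phosphatase of ERK (1.98, adjusted p = 0.0384, against 1.57 and 0.329), and Fn1, fibronectin (2.11, adjusted p = 0.0206, against 1.57 and 0.415). Grb10 (6.77, adjusted p = 0.0935), Etv5 (3.47, adjusted p = 0.112) and Lmo2 (3.26, adjusted p = 0.0856) did not pass in that fit in limma. Over all alternatives the lowest adjusted p of Wif1, Slc7a8, Egln3, Gadd45g, Dusp6 and Fn1 was the one without that sample, and the highest were 0.49, 0.571, 0.376, 1.0, 0.763 and 0.796; for Grb10 they ran from 0.0441 to 0.494.

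On the lower side, Sycp1, a protein of the meiotic synaptonemal complex, read 6.52 and 7.83 in the pre-tumor samples (standard deviation 0.92). It lay at the floor in all 3 lymphomas, at least 14.5-fold lower, yet did not pass in limma (adjusted p = 0.357). The Dnmt3b-deficient lymphomas in the fit spread from 3.41 to 7.19. With only the 2 groups compared in the fit, Sycp1 did not pass either. Without Dnmt3b-deficient lymphoma replicate 3 it passed (adjusted p = 0.0276 in limma, in a range of 0.0276 to 0.815 over all alternatives). Syce1, another protein of that complex, read 5.63 and 6.49 against 3.51, 3.54 and 3.87 (-2.42, adjusted p = 0.566 in limma). Qser1, known for opposing de novo methylation, read 6.83 and 6.72 against 4.64, 3.55 and 3.98 (-2.72, SE 0.48, adjusted p = 0.15 in limma). Ccnd1, the cyclin D1 gene, read 7.62 and 7.29 against 5.23, 5.16 and 4.68 (-2.44, SE 0.99, adjusted p = 0.608 in limma), and passed without Dnmt3b-deficient lymphoma replicate 1 (adjusted p = 0.0244 in limma, in a range of 0.0244 to 0.96 over all alternatives). None of these 4 genes, picked for their large differences, overlapped between the groups, as was so for 8.71% of all genes on the lower side.

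**Figure D4:**
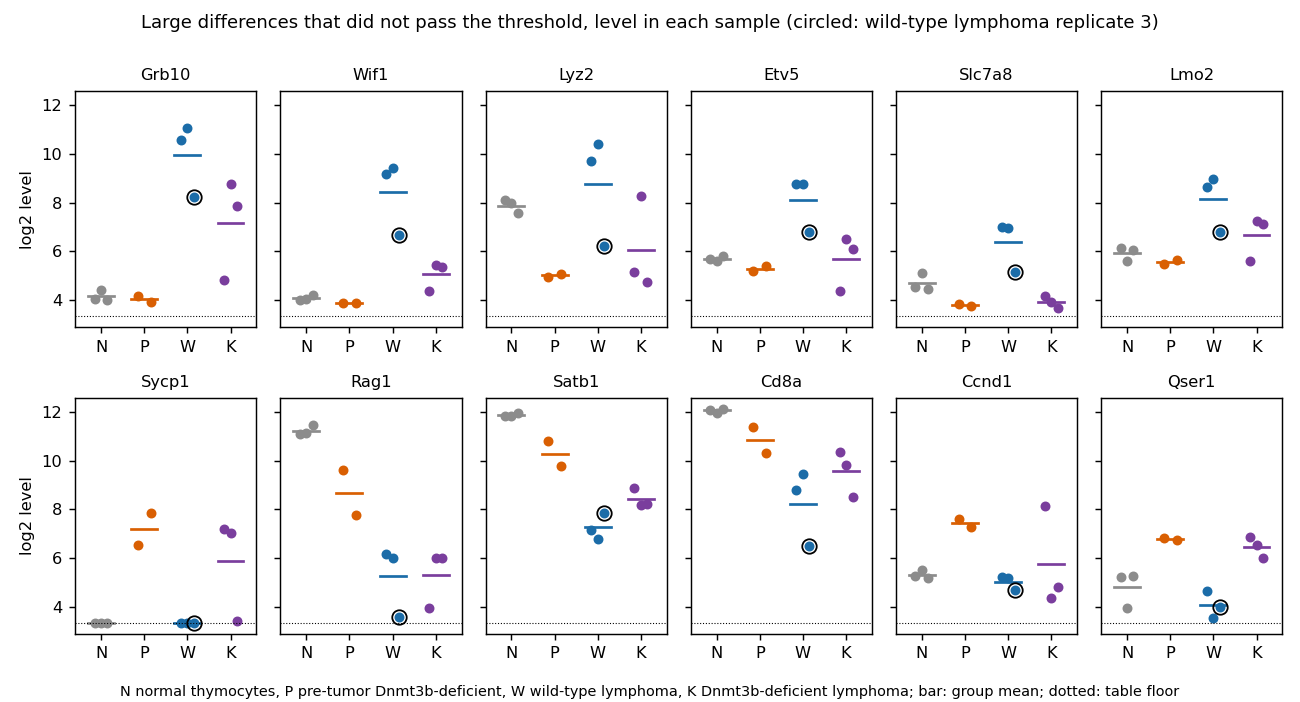
Log2 level in each sample of 12 genes with large differences that did not pass, by group as in the plot of the genes that passed; the circle marks wild-type lymphoma replicate 3. For Grb10, Wif1, Lyz2, Etv5, Slc7a8 and Lmo2 the circled sample lies below the other 2 lymphomas, and for Sycp1 all 3 lymphomas lie on the floor of 3.32.

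Myeloid markers were higher in 2 of the 3 unsorted lymphomas. The summed linear level of 12 neutrophil markers was 1473 and 1439 in lymphomas 1 and 2, 236 in lymphoma 3, and 203 and 198 in the sorted pre-tumor samples. That of 19 macrophage and monocyte markers was 1906, 2809 and 477 in the lymphomas and 405 and 595 in the pre-tumor samples. All 12 neutrophil genes had positive differences (median 1.58), as did 17 of the 19 macrophage genes with the other 2 at 0.00 (median 0.31), and none passed. Lyz2, a lysozyme of myeloid cells, read 9.71, 10.41 and 6.23 against 4.94 and 5.08 (3.77, SE 1.41, adjusted p = 0.55 in limma). Without lymphoma 3 its difference was 5.05 (adjusted p = 0.177 in limma), and the median of the neutrophil list was 2.27. Of the defining macrophage genes, Ms4a7 and Cd163 were at the floor in both groups and Adgre1 and Mrc1 in the pre-tumor samples, as were the neutrophil genes Mmp8 and Cxcr2. The part of such cells in the genes that were high in lymphomas 1 and 2 was not tested. Markers of the T lineage, the labelled lineage of both groups, were high in all 5 samples: their sum was 4283 to 5032 in the lymphomas and 4984 to 5360 in the pre-tumor thymocytes, with 8 of 9 slightly lower in the lymphomas (median -0.31). The sums of B cell markers were 288 to 335 in the lymphomas and 357 to 500 in the pre-tumor samples, those of dendritic cell and class II markers 781 to 1035 and 591 to 706, and those of endothelial markers 353 to 411 and 349 to 429. NK and cytotoxic markers summed to 342, 329 and 1099 in lymphomas 1, 2 and 3 and to 377 and 486 in the pre-tumor samples. Thymic epithelial markers summed to 400 to 496 in the lymphomas and 462 to 509 in the pre-tumor samples. Erythroid (113 to 133 and 106 to 111), fibroblast (316 to 372 and 300 to 309) and mast cell and platelet markers (136 to 165 and 132 to 133) were low in both groups.

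**Figure D5:**
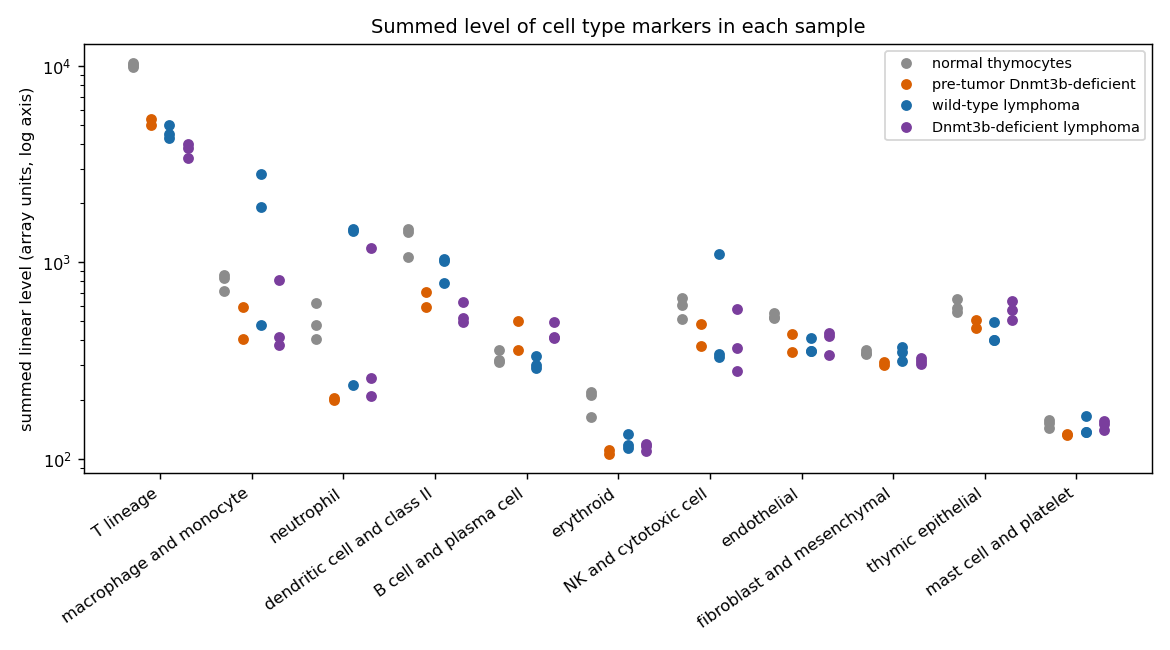
Summed linear level (array units, log axis) of 11 cell type marker lists in each of the 11 samples, coloured by group. Neutrophil markers reach 1473 and 1439 in wild-type lymphomas 1 and 2 and stay at 198 to 236 in wild-type lymphoma 3 and both pre-tumor samples.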

How the data were processed

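The deposited table holds log2 expression values per probe set and array; per the submitters' processing notes, the authors used Partek and RMA, with no versions or order of steps given. No genome build is named in the labels. Of 35512 probe sets, the 6573 with the lowest ID numbers carry no gene and were left out as probable controls, which is inferred from the IDs. Of the other 28939, 21789 had 1 gene symbol, 1621 several and 5529 none in the platform annotation.

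All 11 arrays were fitted together, each group with its own mean, by limma 3.58.1 in R 4.3.3 (lmFit, eBayes without a trend; 7 residual and 0.46 prior degrees of freedom), and p-values were adjusted by Benjamini-Hochberg over the 28939 probe sets. Sums, counts and figures were made in Python 3.11.15 with pandas 2.3.3 and matplotlib 3.10.9. An exact permutation test, two-sided, was used for Dnmt3b. No normalization was added, and 4768 fitted probe sets lay at the floor on all 11 arrays. Differences are wild-type lymphoma minus pre-tumor, and a gene is read from its brightest probe set. Arrays have no read depth, so the number of arrays limits the precision.

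Named were the DNA methyltransferases Dnmt1, Dnmt3a and Dnmt3b, Myc and Ment, the 15 largest rises and falls past the threshold without overlap (11 falls and 7 rises were available), up to 4 called members per list, and otherwise up to 2 members with the largest differences. Predicted and small RNA genes were left out of the ranking. Other genes are marked as named after their values were seen. The samples, comparison and 52 lists (1054 genes, 970 measured) were chosen with earlier results of these data known. In data simulated on the 28939 probe sets, this fit recovered 44% of 100 differences of 1 log2 unit and 89% of 100 differences of 2. There were 5 false calls. The differences were placed only in brighter probe sets. The simulated noise was normal, with the same mean and spread in every group before the differences were added. The recovery therefore does not describe genes near the floor, where many of the calls lay. Alternatives covered centring, quantile normalization, filters on dim probe sets, the samples fitted, the moderation, a replicate block, a fold minimum and leaving out each sample.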

Additional observations from a re-analysis of the deposited data

Results flagged for a closer look

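For 8 of the 22 genes, the pre-tumor and the wild-type lymphoma samples lay on opposite sides of the normal thymocytes, every sample of one group above all 3 normal samples and every sample of the other below them. Both comparisons share those normal samples, and the test of the difference is the comparison of the 2 groups itself. The 22 genes were called on that difference, which favours such a pattern. The share over all genes was not counted, so the count is not read as a trait of these genes. The difference (wild-type lymphoma minus pre-tumor) was -1.21 for Ment (Gm128), -3.27 for Mgst2, -2.78 for Akr1c18, -1.43 for Parp14 and -1.20 for Gm4759, with the pre-tumor samples above normal. It was 1.73 for Sema6a, 0.93 for Rab11fip5 and 0.61 for Rad54l2, with the lymphomas above normal.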

How the results depend on the processing

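The 23 called single-symbol probe sets became 38 with arrays centred on their medians, 41 without probe sets at the floor on all arrays, 61 without the dimmest probe sets (by mean level, the lowest of 3 equal parts), 14 with the 2 groups fitted alone, 13 without moderation and 13 with a fold change of at least 2. Leaving out each sample in turn gave 12 to 122 calls. With quantile normalization, a variance trend, robust moderation or adjustment over single-symbol probe sets, the count stayed between 17 and 23. The replicate block left 6 calls (1 higher, 5 lower). The titles give only replicate numbers and name no pairing across groups. Deviations of same-numbered samples from their group means correlated at -0.331 and -0.135. The deviations of the 2 pre-tumor samples are opposite by construction, so these correlations cannot show whether the numbers mark a pairing. The Dnmt3b difference stayed positive and below the threshold in every alternative. Among the named genes past the threshold, 320 gene-by-alternative results kept direction and call and 160 kept direction but lost the call, and 42 results of genes that had not passed gained one. Without pre-tumor replicate 2, the differences of Ndufab1 and Snrpd1, which did not pass, changed sign to 0.02 and 0.05, in ranges of -0.75 to 0.02 and -0.62 to 0.05 over the left-out samples; the cause was not tested. List medians moved by more than their spread in 38 of 1092 cases. With 3 and 2 arrays, floor values on 21.8% to 25.8% of each array and low prior degrees of freedom (0.46, or 1.94 without probe sets at the floor), absence of a call does not show equal levels.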

Other observations

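Small nucleolar RNAs, which guide chemical modification of ribosomal RNA, were looked at after their values were seen. Of 53 such genes, 46 were higher in the wild-type lymphomas and 6 lower, with a median difference of 0.28 against 0.00 over all genes. None passed in limma; at an unadjusted p under 0.05, 12 were higher and none lower, beside 4.72% and 3.44% over all genes. The groups did not overlap for 20, all of them higher (12.1% over all genes). The mean level of the 53 was 6.83, 6.86 and 7.05 in the lymphomas and 6.40 and 6.78 in the pre-tumor samples, so pre-tumor replicate 2 lay close to lymphomas 1 and 2. Snord14e read between 10.27 and 11 in the lymphomas and 8.80 and 9.22 in the pre-tumor thymocytes (1.71, SE 0.23, adjusted p = 0.065 in limma). Snora73a read 8.35, 8.18 and 8.39 against 7.83 and 7.80 (0.49, SE 0.07, adjusted p = 0.0832 in limma).

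Lamp2, a protein of the lysosomal membrane, was among the larger differences seen in all 3 lymphomas alike. It read 9.08, 9.11 and 8.64 there and 6.25 and 6.72 in the pre-tumor thymocytes (2.45, SE 0.34, adjusted p = 0.0775 in limma). The Dnmt3b-deficient lymphomas, at 8.14, 9.15 and 8.10, were also above the pre-tumor samples. Litaf, a protein of late endosomes and lysosomes named after its values were seen, read 7.31, 8.17 and 7.40 in the wild-type lymphomas and 5.45 and 5.79 in the pre-tumor thymocytes (2.01, SE 0.29, adjusted p = 0.0879 in limma). The oncofetal RNA-binding protein Igf2bp3 ran the other way, at 4.78, 5.48 and 5.66 against 7.04 and 7.36 (-1.90, SE 0.30, adjusted p = 0.116 in limma).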
